A study of Homo sapiens with 6 samples.

Results

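Nuclear receptor coregulators were read here as 20 probe sets of 7 genes, the probe sets whose single gene symbol in the platform annotation is NCOA1, NCOA2, CREBBP, MED1, TRIM24, NRIP1 or TLE1. They are 20 of 19065 probe sets with 1 gene symbol, and 7 of 11963 genes. A further 2 genes belong to the same set of 9, NCOA3 and NCOR1, and were not analysed here. NCOA1 and NCOA2 were each read by 4 probe sets, TRIM24 and TLE1 by 3, and CREBBP, MED1 and NRIP1 by 2.

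The study compares SUM44, an invasive lobular breast carcinoma cell line labelled as positive for the estrogen and progesterone receptors, with LCCTam, the variant of it that is resistant to tamoxifen. The 3 SUM44 samples, replicates 1 to 3, are its passages 74, 75 and 76. The 3 LCCTam samples are passages 8, 9 and 10 of that line. Replicate numbers name the samples in the order deposited and pair none of them across lines. Both lines grew in a Ham's F12 medium, and the medium of LCCTam also held 500 nM 4-hydroxytamoxifen, the active form of the drug that binds the estrogen receptor. The resistant state and the presence of the drug therefore cannot be told apart, and LCCTam is 1 derived line. Each of the 6 RNA samples was hybridized to its own Affymetrix array, and the values are log2 expression after RMA, a method that corrects background, aligns the arrays and merges the probes of each set into 1 value.

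A nuclear receptor such as estrogen receptor alpha is a transcription factor whose effect on a gene depends on the proteins it recruits. Hormone moves the receptor into a shape that binds coactivators through short leucine-rich motifs, and tamoxifen moves it into another shape that hinders this binding and allows corepressors to bind. The p160 proteins encoded by NCOA1 and NCOA2 bind the receptor directly and bring in the acetyltransferase encoded by CREBBP, while MED1 is the Mediator subunit that links receptors to RNA polymerase II. NRIP1, also called RIP140, binds hormone-bound receptors and recruits deacetylases and CtBP proteins, and its gene is a known estrogen target in breast cancer cells. TRIM24 is a receptor cofactor of the TIF1 family, and TLE1 is a Groucho family corepressor that also affects where estrogen receptor binds chromatin in breast cancer cells.

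One array stood apart. LCCTam replicate 3 had a difference between the 3' and 5' actin control probe sets of 1.92, against 0.90 to 1.15 on the other 5 arrays, and for GAPDH of 0.61, against 0.09 to 0.31. Its 75th percentile of log2 expression was 7.50, against 7.68 to 7.78 elsewhere. Pearson's r over all non-control probe sets was 0.986 to 0.996 within LCCTam, 0.988 to 0.995 within SUM44 and 0.971 to 0.982 between the lines. The 7 luminal epithelial markers, among them KRT8, EPCAM and GATA3, all lay at or above percentile 90.1 of all probe sets in both lines, with summed log2 values of 84.4 to 85.1 in SUM44 and 81.1 to 83.0 in LCCTam. Of these 7 markers ESR1 was the 1 called, lower in LCCTam. Differences were below 0 for 6 of the 7, with a median of -0.23 (-0.13 without LCCTam replicate 3). At an unadjusted p under 0.05 in limma, 2 of the 7 were lower and 0 higher. The 8 fibroblast markers had a median percentile of 44.0 in SUM44 and 42.9 in LCCTam, and the 6 measured leukocyte and endothelial markers of 29.9 and 29.1. Neither of the latter lists had a gene called at an adjusted p under 0.05, or at an unadjusted p under 0.05, in limma. The summed log2 value of the fibroblast markers was 43.7 to 44.2 in SUM44 and 43.7 to 44.3 in LCCTam. Results are given with and without LCCTam replicate 3 where it matters.

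The 4 genes NCOA2, TRIM24, NRIP1 and TLE1 each had 1 probe set that was lower in LCCTam, by 1.51- to 1.89-fold, and 0 of the 20 probe sets were higher. NCOA1, CREBBP and MED1 had 0 probe sets called. A probe set was called where its limma adjusted p, over all 19065 probe sets, was under 0.05. The 4 calls are 4 of 20 probe sets, while 5.65% of all probe sets were called lower and 1.72% higher. Without the threshold on the adjusted value, 9 of 20 had an unadjusted p under 0.05 and a lower mean, and 0 a higher one, against 14.7% and 8.01% of all probe sets. The differences were below 0 for 17 of 20, with a median of -0.30, where the median over all probe sets was 0.013. The 3 values of 1 line stood clear of the other 3 for 8 of 20 probe sets, all lower in LCCTam, against 16.6% lower and 13% higher of all probe sets. The members were chosen with earlier results of these data known, so these shares describe them and do not test the set.

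Leaving out LCCTam replicate 3 gave 6 of 20 probe sets called lower and 0 higher, in 5 genes, against 7.14% lower and 4.6% higher of all probe sets. The median difference of the 20 was then -0.31. Other arrays mattered more. Without SUM44 replicate 2, 0 of 20 passed, and 295 of all probe sets were called lower, where the fit of all arrays had 1078. Without LCCTam replicate 1 only the TRIM24 probe set 213301_x_at passed, with 364 of all probe sets called lower. These 2 arrays had the highest array weights in limma, 2.40 and 5.40, where LCCTam replicate 3 had 0.20. With these weights in the fit 13 of 20 were called lower and 0 higher, while the share of all probe sets called also grew, to 16.9% lower and 15.6% higher.

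**Figure D1:**
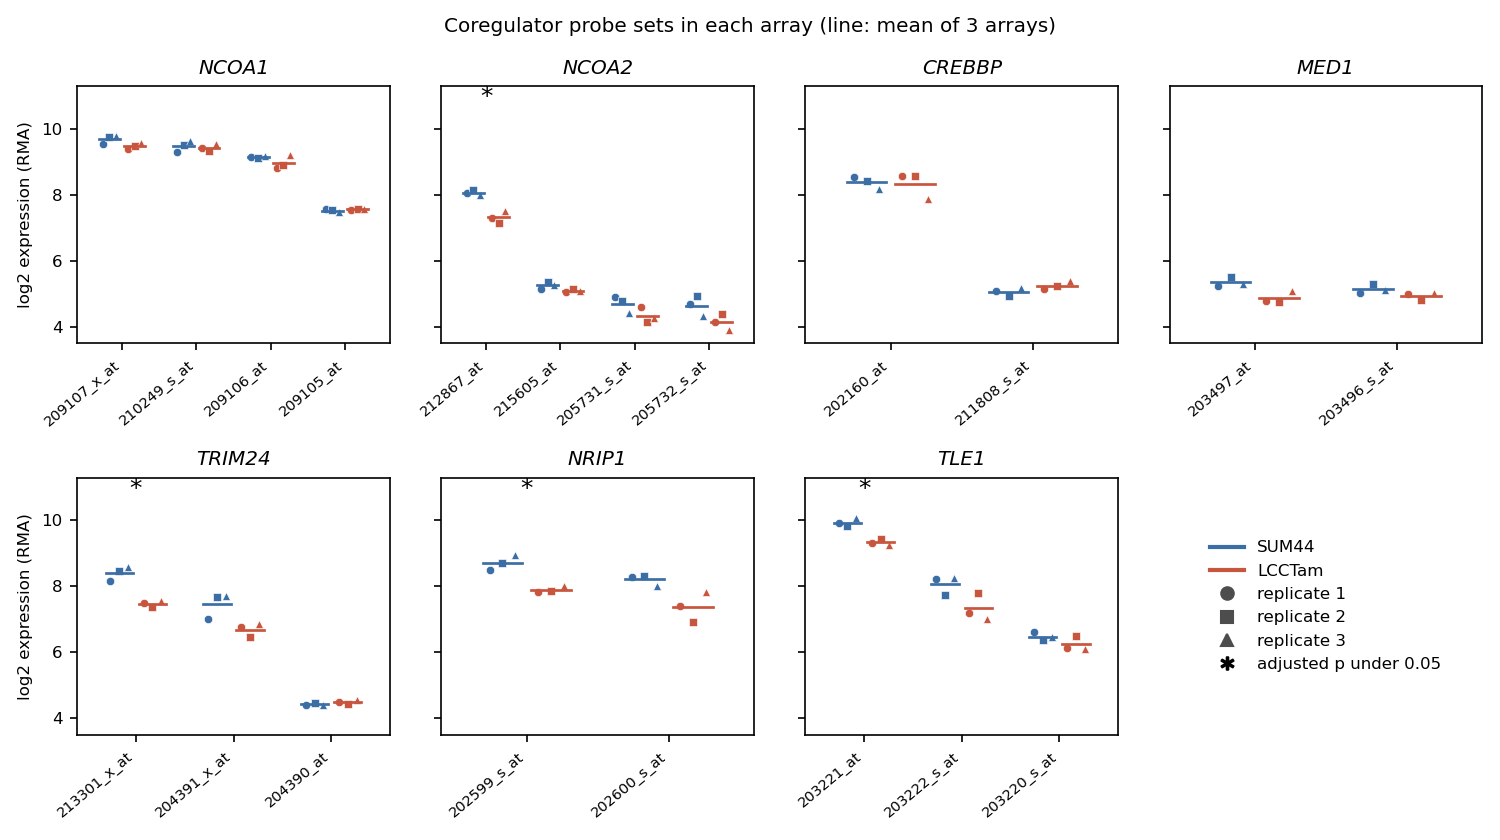
Log2 expression (y axis) of each of the 20 coregulator probe sets (x axis) in the 3 SUM44 and 3 LCCTam arrays, 1 panel per gene; each point is 1 array, bars are the means of 3 arrays and an asterisk marks an adjusted p under 0.05. In the 4 probe sets with an asterisk every LCCTam point lies below every SUM44 point, while NCOA1 and CREBBP overlap throughout.

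**Figure D2:**
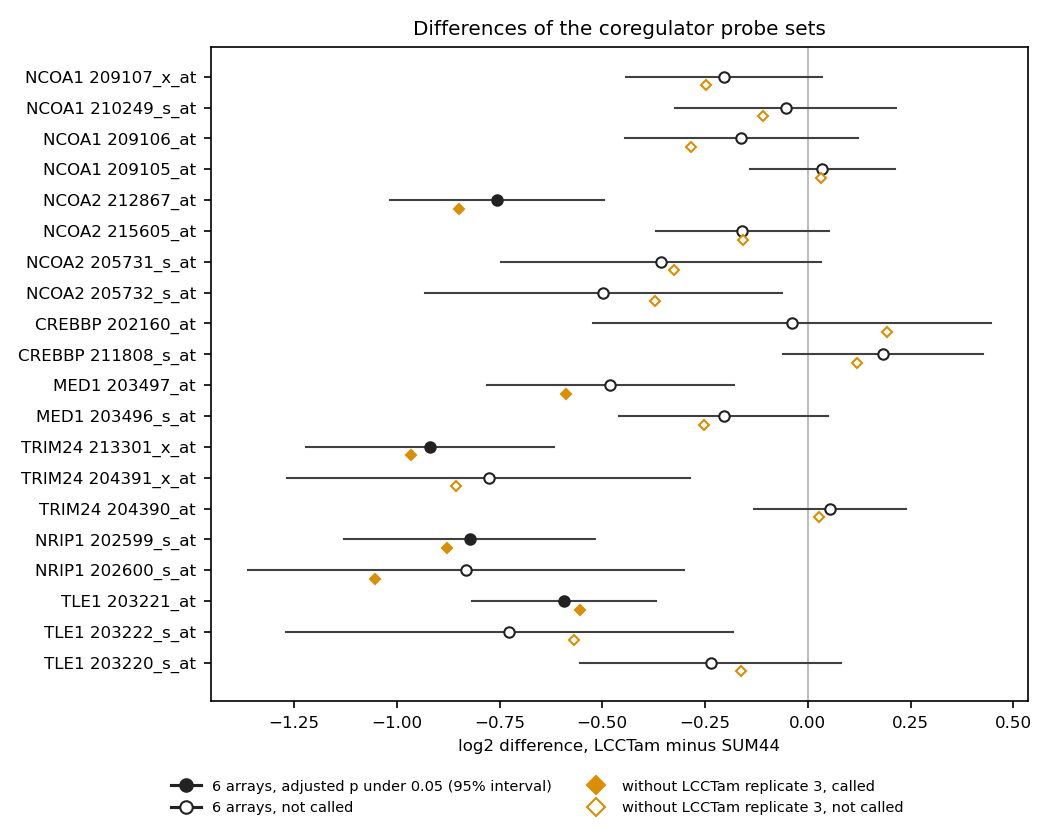
Log2 difference, LCCTam minus SUM44 (x axis), of the same 20 probe sets with 95% confidence intervals (circles, 6 arrays) and without LCCTam replicate 3 (diamonds, no interval drawn); filled symbols have an adjusted p under 0.05. The filled circles lie between -0.92 and -0.59, and without that array MED1 203497_at and NRIP1 202600_s_at are filled as well.

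Promoter sequences are shown for NRIP1 and TLE1, which each had a called probe set, and for MED1, whose window is 1 of the 2 of 10 that hold the bases GGTCA. Each is the 250 bases before the RefSeq start that lies furthest upstream, 5′ to 3′ on the gene's own strand, from assembly GRCh38.p14. Capitals mark every match, on either strand, to GGGCGG, the core of the Sp1 site, and to GGTCA, which is 1 arm of the element bound by estrogen receptor and part of the longer element bound by the estrogen-related receptors. The NRIP1 window lies at chr21:15065937-15066186, that of TLE1 at chr9:81689548-81689797 and that of MED1 at chr17:39451264-39451513, all on the minus strand.
NRIP1: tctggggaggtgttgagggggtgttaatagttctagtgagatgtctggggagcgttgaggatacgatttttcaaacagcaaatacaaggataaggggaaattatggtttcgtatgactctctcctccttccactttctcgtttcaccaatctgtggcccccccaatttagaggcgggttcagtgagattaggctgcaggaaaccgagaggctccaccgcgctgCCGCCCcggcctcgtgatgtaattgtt
TLE1: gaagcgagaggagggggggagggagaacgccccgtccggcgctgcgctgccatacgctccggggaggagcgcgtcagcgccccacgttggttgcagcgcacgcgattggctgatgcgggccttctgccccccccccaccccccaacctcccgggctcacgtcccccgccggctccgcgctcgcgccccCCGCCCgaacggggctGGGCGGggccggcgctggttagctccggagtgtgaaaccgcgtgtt
MED1: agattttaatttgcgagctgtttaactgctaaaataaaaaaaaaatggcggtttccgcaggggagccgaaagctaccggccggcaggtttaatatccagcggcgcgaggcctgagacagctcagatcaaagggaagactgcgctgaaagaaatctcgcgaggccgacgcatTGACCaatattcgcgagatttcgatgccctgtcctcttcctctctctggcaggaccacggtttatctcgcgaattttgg

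The 10 RefSeq windows of 5 members, several per gene for NCOA1, CREBBP and NRIP1, were searched on both strands. NCOA2 and TRIM24, which each had a called probe set, have no window among the 10. Windows on chromosome 8, where NCOA2 lies, were left out of the member windows but not of the windows used for comparison. GGTCA occurred in 2 of the 10, that of MED1 printed above and another of NRIP1, against 32.6% of all 35116 windows of this length. The full estrogen response element, which holds GGTCA and its reverse complement TGACC with 3 bases between them, occurred in 0 of 10, and in 0.0399% of all windows. The estrogen-related receptor element AAGGTCA, which contains GGTCA, occurred in 0 (3.44% of all windows), the AP-1 element TGANTCA in 0 (6.57%) and the CREB element TGACGTCA in 0 (1.65%). GGGCGG was in 8 of 10, against 42.6% of all windows, with 2 matches in the TLE1 sequence and 1 in that of NRIP1. These matches describe the letters of these windows, and elements further away were not looked at.

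Among the p160 coactivators, NCOA2 was lower in LCCTam by its brightest probe set and NCOA1 had no probe set called. NCOA2 probe set 212867_at read 8.07, 8.16 and 7.99 in SUM44 and 7.29, 7.16 and 7.50 in LCCTam. All 3 LCCTam values lay below the lowest SUM44 value. NCOA2 thus differed by -0.76 on the log2 scale (SE 0.11, limma adjusted p = 0.0109), which is 1.69-fold lower, and by -0.85 without LCCTam replicate 3 (adjusted p = 0.00526). The call was lost without SUM44 replicate 2 (difference -0.71, adjusted p = 0.0682) and without LCCTam replicate 1 (-0.74, adjusted p = 0.0562).

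The other 3 NCOA2 probe sets were dim, at percentiles 10.6 to 34.7 of all probe sets, and none was called. Probe set 205732_s_at read 4.68, 4.92 and 4.32 in SUM44 and 4.16, 4.38 and 3.90 in LCCTam, so the lines overlapped (difference -0.50, adjusted p = 0.167). Probe set 205731_s_at differed by -0.36 (adjusted p = 0.260) and 215605_at by -0.16 (adjusted p = 0.345). All 4 NCOA2 differences were below 0. Tested against the other NCOA2 probe sets, 212867_at differed by -0.42 more (diffSplice adjusted p = 0.326), so a disagreement among them was not shown. No background level was available to set them against, and RMA can compress the difference of a dim probe set.

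NCOA1 was bright in both lines, and 0 of its 4 probe sets were called, or had an unadjusted p under 0.05, in limma. Its brightest probe set, 209107_x_at, read 9.53, 9.75 and 9.78 in SUM44 and 9.38, 9.49 and 9.57 in LCCTam. The difference of -0.20 had a 95% interval of -0.44 to 0.04 (adjusted p = 0.292). The interval was -0.14 to 0.21 for 209105_at, which read 7.57, 7.53 and 7.48 in SUM44 and 7.54, 7.57 and 7.57 in LCCTam. Probe set 210249_s_at differed by -0.05, with an interval of -0.32 to 0.21. In 209106_at the third LCCTam array was high, at 9.22 against 8.80 and 8.92, and SUM44 read 9.14, 9.11 and 9.18. Its difference was -0.16 with all arrays and -0.28 without LCCTam replicate 3 (adjusted p = 0.0714). No interval of the 4 reached a decrease of 0.50 on the log2 scale. With array weights 2 of the 4 were called lower, 209107_x_at at -0.31 (adjusted p = 0.0111) and 209106_at at -0.30 (adjusted p = 0.0147).

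The p160 genes were also set against each other within each array. NCOA2 minus NCOA1, each by its brightest probe set, averaged -1.61 ± 0.16 (SD, n = 3) over the SUM44 arrays and -2.16 ± 0.14 (SD, n = 3) over the LCCTam arrays. The change was -0.55, and all 3 LCCTam arrays lay below all SUM44 arrays (exact permutation test, two-sided p = 0.1, the smallest p that 3 against 3 arrays allow). The same test was run for 4 such pairs of related genes, picked after their values were seen. With 3 against 3 arrays no p of this test can pass 0.05, adjusted or not, so it decides nothing about these pairs.

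CREBBP, the acetyltransferase that p160 proteins recruit, was not called by either of its 2 probe sets in limma, and neither had an unadjusted p under 0.05. Probe set 202160_at read 8.55, 8.41 and 8.18 in SUM44 and 8.56, 8.58 and 7.88 in LCCTam. The low LCCTam value is that of replicate 3, the array with the larger 3' minus 5' difference. The difference was -0.04 with a 95% interval of -0.52 to 0.45 (adjusted p = 0.932), and 0.19 without that array (adjusted p = 0.374), so its direction is not settled. The dimmer probe set, 211808_s_at, differed by 0.18 (interval -0.06 to 0.43, adjusted p = 0.346). EP300, which encodes the closest relative of the CREBBP protein and was picked for that relation after its values were seen, differed by -0.01 in its brighter probe set (interval -0.30 to 0.28).

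MED1 was dim and did not pass with all 6 arrays. Probe set 203497_at read 5.24, 5.52 and 5.30 in SUM44 and 4.79, 4.75 and 5.09 in LCCTam, without overlap. The difference was -0.48 (SE 0.13, adjusted p = 0.0694), and its SUM44 mean ranked at percentile 36.6, its LCCTam mean at 25.9. It passed without LCCTam replicate 3 (difference -0.59, adjusted p = 0.0208), with array weights (-0.64, adjusted p = 0.00116) and after quantile normalization (-0.50, adjusted p = 0.0389). Leaving out any of the other 5 arrays gave -0.54 to -0.40, none of which passed (adjusted p = 0.101 to 0.239). The other probe set, 203496_s_at, differed by -0.20 (interval -0.46 to 0.05, adjusted p = 0.318) and overlapped between the lines.

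TRIM24 had the largest decrease of the 4 probe sets called with all arrays, and 1 of its 3 probe sets, a dim one, did not show it. Without LCCTam replicate 3, NRIP1 202600_s_at, called in that fit, had a larger decrease, at -1.05. Probe set 213301_x_at read 8.15, 8.46 and 8.58 in SUM44 and 7.49, 7.37 and 7.57 in LCCTam. The lines were separated by more than the spread within either, with a difference of -0.92 (SE 0.13, adjusted p = 0.00917), a 1.89-fold decrease. Without LCCTam replicate 3 it was -0.97 (adjusted p = 0.0118). The call held in 5 of the 6 fits that left out 1 array, and was lost without SUM44 replicate 2 (adjusted p = 0.0602).

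Probe set 204391_x_at pointed the same way without passing. It read 7.01, 7.70 and 7.70 in SUM44 and 6.76, 6.47 and 6.85 in LCCTam, a difference of -0.78 (adjusted p = 0.0724). SUM44 replicate 1 was its low SUM44 value, and when that array was left out the difference was -1.01 (adjusted p = 0.0155). Leaving out any of the other 5 arrays in turn gave -0.86 to -0.66, none of which passed (adjusted p = 0.0679 to 0.247). Both of these probe sets carry the suffix _x_at, which marks probes that can bind transcripts of other genes.

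The third TRIM24 probe set, 204390_at, was dim. It read 4.42, 4.48 and 4.42 in SUM44 and 4.50, 4.43 and 4.55 in LCCTam, a difference of 0.05 with an interval of -0.13 to 0.24. Its SUM44 mean lay at percentile 16.6 and its LCCTam mean at 17.6, and it was not shown to be above background, so the lack of a difference in it does not show that the transcript was level. Against the other TRIM24 probe sets it differed by 0.90 (limma's diffSplice, adjusted p = 0.0204). It was the only 1 of the 20 to differ from the rest of its gene, against 2.57% of the 11412 probe sets of genes with several. Without LCCTam replicate 3 it was 0.94 (adjusted p = 0.0462). With quantile normalization it did not pass (0.78, adjusted p = 0.0911), nor without SUM44 replicate 2, SUM44 replicate 3, LCCTam replicate 1 or LCCTam replicate 2 (0.79 to 0.92, adjusted p = 0.0837 to 0.153). The test treats the probe sets of a gene as independent, although they share their arrays.

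TRIM33, a close relative in the TIF1 family, was lower in LCCTam as well. Of its 4 probe sets 2 were called lower, 212435_at at -0.81 (adjusted p = 0.0125) and 212436_at at -0.49 (adjusted p = 0.0347). The brightest, 210266_s_at, read 8.71, 8.73 and 9.03 in SUM44 and 8.27, 8.32 and 8.44 in LCCTam (difference -0.48, adjusted p = 0.0515), and the dimmest, 214815_at, differed by 0.15. The call of 212435_at was lost without SUM44 replicate 2 and without LCCTam replicate 1, and that of 212436_at in every fit that left out 1 array but the 1 without LCCTam replicate 3. TRIM28, a corepressor of the family, differed by -0.02 in its 1 probe set (interval -0.34 to 0.30). Within arrays, TRIM24 minus TRIM28 changed by -0.90 and TRIM24 minus TRIM33 by -0.44 (exact permutation test, two-sided p = 0.1 for both).

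NRIP1 was lower in LCCTam by both of its probe sets, and 1 of them passed. Probe set 202599_s_at read 8.50, 8.70 and 8.96 in SUM44 and 7.84, 7.85 and 8.01 in LCCTam. The highest LCCTam array stayed below the lowest SUM44 array, with a difference of -0.82 (SE 0.13, adjusted p = 0.0138), a 1.77-fold decrease. It was -0.88 without LCCTam replicate 3 (adjusted p = 0.0153). The call was lost without SUM44 replicate 2 (adjusted p = 0.0746), LCCTam replicate 1 (0.0679) or LCCTam replicate 2 (0.0538), with differences of -0.83, -0.79 and -0.80.

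The second NRIP1 probe set gave a decrease of the same size with more spread. Probe set 202600_s_at read 8.30, 8.33 and 8.01 in SUM44 and 7.41, 6.91 and 7.82 in LCCTam, a difference of -0.83 (SE 0.22, adjusted p = 0.0745). LCCTam replicate 3 was the highest of its line here, and without it the difference was -1.05 (adjusted p = 0.0172). A difference between the 2 NRIP1 probe sets was not shown (diffSplice adjusted p = 0.997). The receptor genes themselves differed more, with ESR1, which encodes estrogen receptor alpha, at -1.65 (adjusted p = 0.00124) and ESRRG, which encodes estrogen-related receptor gamma, at 2.10 (adjusted p = 0.00333). These values are from the brightest probe set of each gene. Of 9 ESR1 probe sets 5 were called lower and 0 higher, and of 2 ESRRG probe sets 2 were called higher.

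TLE1 was lower in LCCTam by 1 of its 3 probe sets, with the smallest difference of the 4 called. Probe set 203221_at read 9.92, 9.83 and 10.06 in SUM44 and 9.33, 9.43 and 9.27 in LCCTam. Every LCCTam array was below every SUM44 array, with a difference of -0.59 (SE 0.09, adjusted p = 0.0146), a 1.51-fold decrease. Without LCCTam replicate 3 it was -0.56 (adjusted p = 0.0195). The call was lost without SUM44 replicate 2 (-0.65, adjusted p = 0.0529) and without LCCTam replicate 1 (-0.59, adjusted p = 0.0695).

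The other TLE1 probe sets were lower on average but overlapped. Probe set 203222_s_at read 8.21, 7.74 and 8.25 in SUM44 and 7.19, 7.81 and 7.02 in LCCTam, so LCCTam replicate 2 lay above SUM44 replicate 2 (difference -0.73, adjusted p = 0.114). Probe set 203220_s_at differed by -0.24 (interval -0.55 to 0.08, adjusted p = 0.353). A difference among the 3 TLE1 probe sets was not shown (diffSplice F test, adjusted p = 0.656).

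TLE3, another Groucho family gene, moved the other way. Of its 3 probe sets 1 was called, higher, 212769_at at 0.58 (adjusted p = 0.0336), a call that held in 2 of the 6 fits that left out 1 array, those without SUM44 replicate 1 and without LCCTam replicate 3. The brightest, 212770_at, read 8.67, 8.60 and 8.42 in SUM44 and 8.97, 9.09 and 8.85 in LCCTam (difference 0.40, adjusted p = 0.0646), and 206472_s_at differed by 0.72 (adjusted p = 0.0925). Within arrays, TLE1 minus TLE3 averaged 1.37 ± 0.23 (SD, n = 3) over the SUM44 arrays and 0.38 ± 0.04 (SD, n = 3) over the LCCTam arrays, a change of -1.0 (exact permutation test, two-sided p = 0.1). The 3 SUM44 arrays gave 1.25, 1.23 and 1.63, and the LCCTam arrays 0.36, 0.35 and 0.42.

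**Figure D3:**
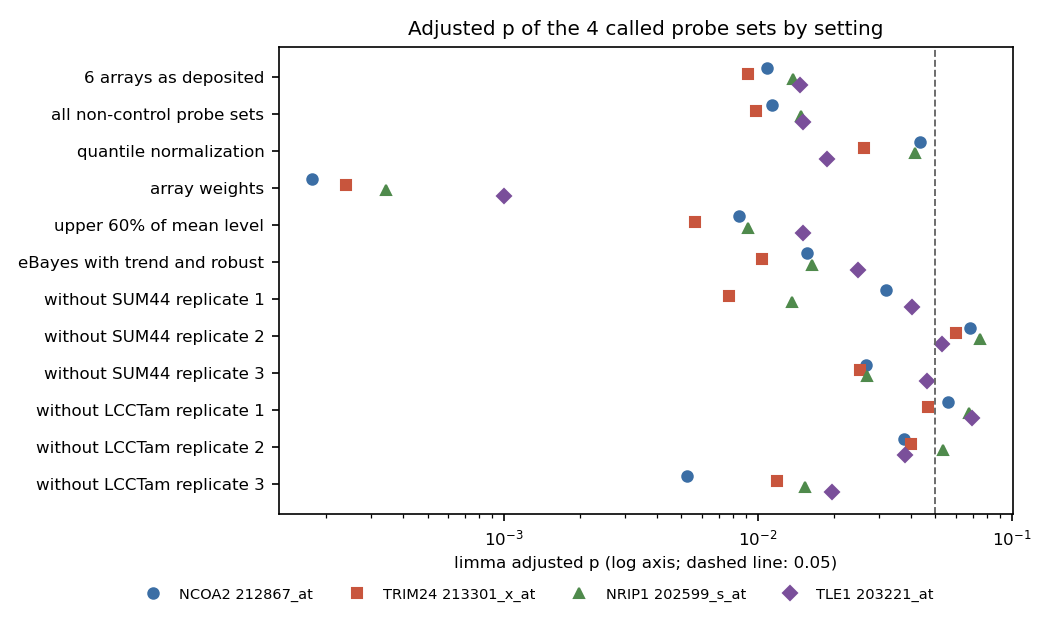
Limma adjusted p on a log axis (x axis) of the 4 called probe sets in the fit of all 6 arrays and under each alternative (y axis); the dashed line is 0.05. With all 6 arrays the 4 lie between 0.00917 and 0.0146, all 4 lie to the right of the line without SUM44 replicate 2, and with array weights they are furthest to the left.

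Most other coregulators of the same complexes did not pass. Counting each gene once, by its brightest probe set, 96 of 118 listed genes outside the members were measured, and 1 rose, 9 fell and 86 did not pass in limma. Over all 11963 genes 2.09% were called higher and 5.83% lower. At an unadjusted p under 0.05, 8 of the 96 were higher and 18 lower, beside 8.01% and 14.7% of all probe sets. The median difference of the 96 genes was -0.01, and 53 were below 0, beside a median of 0.017 over all genes. Counted the same way, 4 of the 7 members fell and 0 rose, with a median of -0.59. Members and lists were both chosen with earlier results of these data known, so the contrast between them is not a test. Without LCCTam replicate 3, 4 of the 96 rose and 13 fell, against 5.29% and 7.47% of all genes, with a median of 0.05, and 5 of the 7 members fell, with a median of -0.59. Leaving out any other array gave between 1 and 4 of the 96 lower. In those fits the count of all probe sets called lower also fell, to between 295 and 820, from 1078 with all arrays.

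**Figure D4:**
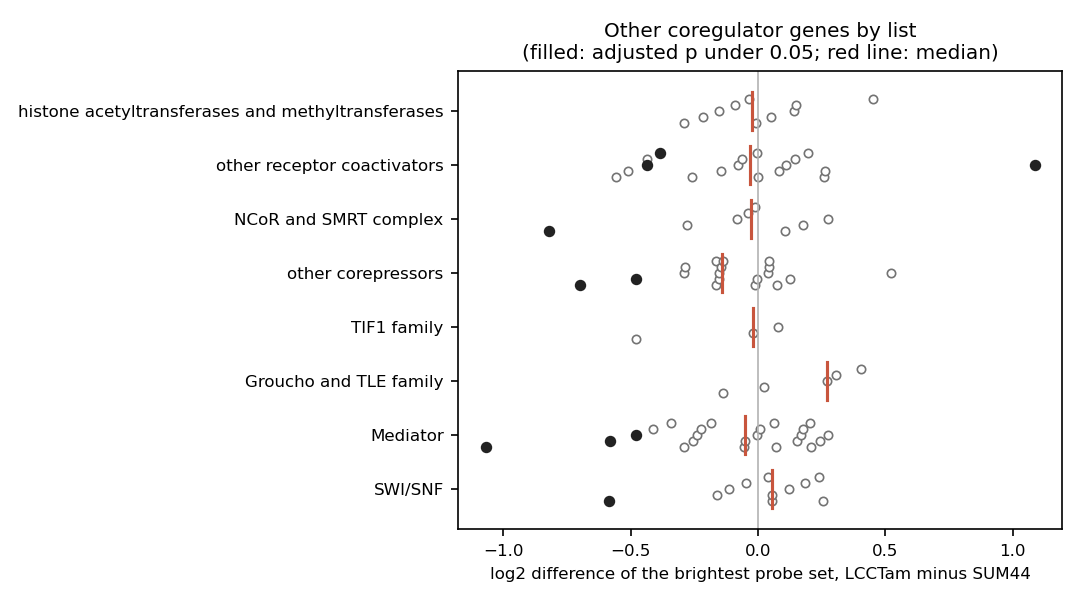
Log2 difference, LCCTam minus SUM44, of the brightest probe set (x axis) for each of 96 coregulator genes outside the members, by list (y axis); filled points have an adjusted p under 0.05 and red lines are list medians. Most points lie near 0, with CITED1 at 1.09 the only filled point above it and MED28 at -1.07 the lowest.

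In the NCoR and SMRT corepressor complex, 0 of 8 measured genes rose and 1 fell, with a median of -0.03 (0.11 without LCCTam replicate 3). It was TBL1XR1, a WD40 protein that helps exchange corepressors for coactivators. Its probe set read 7.22, 7.18 and 7.16 in SUM44 and 6.27, 6.54 and 6.27 in LCCTam, without overlap. The difference was -0.82 (SE 0.10, adjusted p = 0.00548), and it passed in each of the 6 fits that left out 1 array and in all 9 alternatives run for these genes. Of 18 other corepressors 0 rose and 2 fell, with a median of -0.14 (-0.02 without LCCTam replicate 3). They were CTBP1, a partner protein of NRIP1, at -0.70 (adjusted p = 0.0327) and RCOR1, of the CoREST complex, at -0.48 (adjusted p = 0.0335). Each of these 2 passed without LCCTam replicate 3, at -0.54 and -0.45, and without no other single array. In the fit of all probe sets, 1 of the 3 CTBP1 probe sets was called lower and 0 higher, and the 1 RCOR1 probe set was called lower.

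Among 18 other receptor coactivators 1 rose and 2 fell, with a median of -0.03. CITED1, a CREBBP and EP300 binding protein that acts with estrogen receptor, rose by 1.09 on the log2 scale. It read 6.27, 6.41 and 6.74 in SUM44 and 7.61, 7.66 and 7.41 in LCCTam (SE 0.14, adjusted p = 0.00622), and it passed in all 9 alternatives. RBM39, a splicing factor and coactivator, differed by -0.44 (adjusted p = 0.0304), and NCOA4 by -0.38 (adjusted p = 0.0320). Both passed without LCCTam replicate 3 and without no other single array. In the fit of all probe sets, 1 of the 2 RBM39 probe sets was called lower and 0 higher, and the 1 NCOA4 probe set was called lower.

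Of 23 measured Mediator genes besides MED1, 0 rose and 3 fell, with a median of -0.05 (0.02 without LCCTam replicate 3). Over all genes 2.09% were called higher and 5.83% lower. At an unadjusted p under 0.05 in limma, 1 of the 23 was higher and 6 were lower. MED28 differed by -1.07 (adjusted p = 0.0479), MED21 by -0.58 (adjusted p = 0.0333) and MED4 by -0.48 (adjusted p = 0.0292). MED28 was lowest in LCCTam replicate 3 and differed by -0.77 without that array (adjusted p = 0.0154). It passed in no other fit that left out 1 array, and not in the fit of all probe sets. MED21 and MED4 each passed in 2 of those 6 fits. Of 11 SWI/SNF chromatin remodelling genes 0 rose and 1 fell (median 0.05, and 0.15 without LCCTam replicate 3), SMARCE1, at -0.59 (adjusted p = 0.0312), which passed in 2 of the 6 fits that left out 1 array.

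Of 10 histone acetyltransferase and methyltransferase genes 0 were called in limma, with 1 higher at an unadjusted p under 0.05. That was CARM1, a methyltransferase of p160 complexes, which read 7.03, 6.93 and 6.45 in LCCTam against 6.33 to 6.37 in SUM44. Its difference was 0.45 (adjusted p = 0.133), and without LCCTam replicate 3 it passed at 0.63 (adjusted p = 0.00733). Of the 3 TIF1 family genes besides TRIM24, 0 were called by the brightest probe set, with 1 lower at an unadjusted p under 0.05. The 5 TLE family and HES genes had 0 called, with 2 higher at an unadjusted p under 0.05 and a median of 0.27 (0.38 without LCCTam replicate 3).

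The members lie on 7 different chromosomes, and few of their neighbours were called. Gene order was taken from RefSeq assembly GRCh38.p14, with up to 10 measured genes on each side. NCOA2, on chromosome 8, had 2 of 20 neighbours lower and 0 higher, ARFGEF1 at -0.89 and TRAM1 at -0.57, with a median difference of 0.03. TRIM24, on chromosome 7, had 1 lower and 2 higher of 20, among them CREB3L2 at 0.67, and a median of 0.23. Without LCCTam replicate 3 these were 0 lower and 3 higher, with a median of 0.09. TLE1, on chromosome 9, had 0 of 20 called in limma in either direction, with 1 higher and 3 lower at an unadjusted p under 0.05 (median -0.10). NRIP1, on chromosome 21, had 12 neighbours, of which 2 were lower, the nearest measured gene USP25 at -0.64 and HSPA13 at -0.39, with a median of -0.02. Around NCOA1 2 of 20 were lower and around CREBBP 1, and around MED1 1 was higher. Without LCCTam replicate 3, 4 of 20 were lower around NCOA1, 1 lower and 1 higher around CREBBP, 1 of 12 lower around NRIP1 and 1 of 20 lower around TLE1. Over all genes, 5.83% were lower and 2.09% higher with all arrays. Without LCCTam replicate 3 these shares were 7.47% and 5.29%. At an unadjusted p under 0.05 and with all arrays, 0 neighbours were higher and 5 lower around NCOA1, and 1 and 3 around NCOA2. These counts were 2 and 2 around CREBBP, 3 and 0 around MED1, 4 and 3 around TRIM24, and 0 and 3 around NRIP1. Of all probe sets, 8.01% were higher and 14.7% lower at that level.

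Across the 6 arrays the called members had like profiles. Pearson's r between the brightest probe sets was 0.99 for TRIM24 and NRIP1, 0.94 for NRIP1 and TLE1, 0.94 for NCOA2 and TRIM24, and 0.86 for NCOA2 and TLE1. MED1 correlated with NCOA2 at 0.96, and CREBBP with the other 6 between -0.43 and 0.12. With 2 lines of 3 arrays such an r largely restates the difference between lines, and 542 to 616 of all genes had an r over 0.9 with each called member. The genes most like NRIP1 were HMGCS1, an enzyme of cholesterol synthesis, THAP9-AS1 and ZRSR2, at r of 0.995, 0.994 and 0.994. HMGCS1 and THAP9-AS1 were also among the 3 most like TRIM24, with CNR1 (r = 0.998). The 3 most like NCOA2 were ZNF146, IPO7 and EDRF1 (r of 0.998, 0.995 and 0.995), and those most like TLE1 were AGPS, CHKA and USP25 (0.996, 0.994 and 0.992).

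The median SD between arrays of 1 line, over the 20 probe sets, was 0.14 in SUM44 and 0.15 in LCCTam, against 0.10 and 0.15 over all 19065. The SD was larger in LCCTam for 9 of the 20, or 45.0%, against 63.4% of all probe sets. The widest member in LCCTam was NRIP1 202600_s_at, at 0.46, and the widest in SUM44 was TRIM24 204391_x_at, at 0.40.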

How the data were processed

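RNA of 3 SUM44 and 3 LCCTam samples was measured on 1 array each. The deposited table holds log2 expression for every probe set, made by the authors with RMA, as the submitters' processing notes name it. The sources used here do not state its version, the chip definition or joint processing of the arrays. RMA compresses differences of dim probe sets, no detection calls were used, and the number of arrays limits the precision.

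Of 22283 probe sets, 68 were controls and 19065 others had exactly 1 symbol in the platform annotation. Symbols of 19053 were updated by Entrez ID through RefSeq GRCh38.p14. Titles gave each sample's line. Nothing in the labels says that passages were separate cultures, so the p-values may reflect technical spread alone. No scan date entered a fit.

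Differences (LCCTam minus SUM44) were fitted across all probe sets with limma 3.58.1 in R 4.3.3 (lmFit, eBayes, no filter) and adjusted by Benjamini-Hochberg. A second fit used the brightest probe set of each gene, and diffSplice compared probe sets within a gene. The fits were tested on simulated data. Members and gene lists were chosen with earlier results of these data known. Named genes were the members, up to 4 called genes per list with the largest absolute differences (with none called, the largest difference), ESR1, ESRRG, called neighbours, and the 3 genes most like each called member. EP300, TRIM28, TRIM33 and TLE3 probe sets were added as relatives after values were seen, as were the pairs set against each other within arrays.

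Alternatives were other probe set selections, 1 value per gene, quantile normalization, array weights, a filter on dim probe sets, another variance prior, the design text's call rule and leaving out each array.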

Additional observations from a re-analysis of the deposited data

How the results depend on the processing

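Of 221 differences of the 20 coregulator probe sets under 12 alternatives, 191 kept their direction and their side of the threshold, 8 lost their call, 15 gained one and 7 changed sign. The other probe set selections, the filter on dim probe sets and the other variance prior leave each difference unchanged. In them only a call could change. The sign changed for probe sets that were not called. NCOA1 210249_s_at went from -0.05 to 0.023 with quantile normalization, to 0.018 without SUM44 replicate 3 and to 0.00092 without LCCTam replicate 2 (range with 1 array left out, -0.15 to 0.018). CREBBP 202160_at went from -0.04 to 0.051 with quantile normalization, 0.16 with array weights, 0.044 without SUM44 replicate 1 and 0.19 without LCCTam replicate 3 (range with 1 array left out, -0.16 to 0.19). The cause was not tested. The count of 4 member probe sets called lower was 13 with array weights, 2 without _x_at and _s_at probe sets, 0 by the design text's rule (2-fold, unadjusted p and level) and 0 to 6 when 1 array was left out. Member genes with a call numbered 2 without those suffixes and 0 to 5 when 1 array was left out, from 4. No member probe set was called higher in any of these settings. The count of all probe sets called lower, 1078, was 3230 with array weights, 515 without those suffixes, 332 by the design text's rule and 295 to 1361 with 1 array left out. For higher calls, 327, it was 668 with quantile normalization, 2977, 172, 93 and 87 to 877. The share of lower calls among all calls was 76.7%, and 57.8% with quantile normalization, 52.0% with array weights and 60.8% without LCCTam replicate 3. Probe sets differing within their gene numbered 293, and 1667 with array weights, 24 in the upper 60% of mean level and 100 to 378 with 1 array left out. Member genes with such a probe set, 1, became 0 with quantile normalization, 4 with array weights, 0 in the upper 60%, where 204390_at was removed, and 0 to 1 with 1 array left out. Of the 96 other coregulators, 9 lower became 25 with array weights and 1 to 13 with 1 array left out, and 1 higher became 2 with the mean of a gene's probe sets, 4 with quantile normalization, 20 with array weights and 1 to 4 with 1 array left out. No paired analysis was possible because the lines share no passage number, and the replicate numbers used here are names that come from no label.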
